A study of Mus musculus with 6 samples.

Results

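The receptors described here are 36 odorant receptor genes of mouse chromosome 11, out of 711 odorant receptor genes measured and 16661 transcript clusters tested. They were chosen by symbol, as the single-gene clusters with symbols numbered from Olfr311 to Olfr332, from Olfr376 to Olfr412 or from Olfr1377 to Olfr1397, and not by any measured value. The ranges gave 6, 19 and 11 receptors. All 36 are placed on chromosome 11 by the GRCm38.p6 gene table. That table lists 62 receptors in these ranges, and the other 26 had no cluster of their own and are not described singly. RNA came from dissected olfactory epithelium, the nasal lining that holds the olfactory neurons, of mouse embryos at the embryonic day ED18.5. The groups were Emx2 homozygous wildtype and Emx2 knockout, with 3 arrays each. Every array carried pooled RNA of 3 animals, so 9 animals stood behind each genotype. Emx2 encodes a homeodomain transcription factor. The sources used here name neither the strain nor the construct of the knockout allele.

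Odorant receptors are G protein-coupled receptors in the cilia of olfactory sensory neurons. Each mature neuron expresses a single receptor gene out of a very large family, and bound odorant is signalled through the G protein subunit Gnal, the adenylyl cyclase Adcy3 and a cyclic nucleotide-gated channel. The genes lie in tandem arrays that grew by duplication, so neighbours are often members of one sequence family, and the older MOR names number these families. All 36 receptors carry a MOR name, from 13 families, and all of those families belong to class II, the receptor class typical of land vertebrates. MOR135 (13 receptors) and MOR255 (5 receptors) fill most of the range from Olfr376 to Olfr412, and MOR256 (6 receptors) most of the range from Olfr1377 to Olfr1397.

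The array that runs from Olfr376 to Olfr412 holds near copies, and 2 pairs are shown because their upstream sequences are alike while their values differ in pattern. Shown are the 250 bases upstream of the gene start in RefSeq's GRCm38.p6 promoter table, on the coding strand from 5′ to 3′. Capitals mark bases identical to the other gene of the pair in a local alignment. The first pair, Olfr389 at chr11:73780590-73780839 and Olfr392 at chr11:73816878-73817127, both on the minus strand, were identical at 180 of 206 aligned bases (87.4%). Both receptors fell, as described below.
Olfr389: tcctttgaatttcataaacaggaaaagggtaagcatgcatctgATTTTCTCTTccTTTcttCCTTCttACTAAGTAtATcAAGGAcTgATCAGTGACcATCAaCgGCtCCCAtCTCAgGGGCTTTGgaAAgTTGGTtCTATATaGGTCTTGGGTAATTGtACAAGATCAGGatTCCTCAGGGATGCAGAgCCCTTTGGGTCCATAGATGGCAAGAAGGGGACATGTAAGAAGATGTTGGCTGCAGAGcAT
Olfr392: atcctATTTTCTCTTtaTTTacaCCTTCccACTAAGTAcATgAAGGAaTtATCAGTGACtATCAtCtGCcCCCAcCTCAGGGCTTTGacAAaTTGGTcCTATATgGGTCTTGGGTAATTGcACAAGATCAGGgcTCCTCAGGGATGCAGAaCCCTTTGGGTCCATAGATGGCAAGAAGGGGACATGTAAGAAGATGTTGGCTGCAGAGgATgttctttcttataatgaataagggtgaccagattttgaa
The second pair, Olfr401 at chr11:74121041-74121290 and Olfr402 at chr11:74154906-74155155, both on the plus strand, were identical at 206 of 231 aligned bases (89.2%).
Olfr401: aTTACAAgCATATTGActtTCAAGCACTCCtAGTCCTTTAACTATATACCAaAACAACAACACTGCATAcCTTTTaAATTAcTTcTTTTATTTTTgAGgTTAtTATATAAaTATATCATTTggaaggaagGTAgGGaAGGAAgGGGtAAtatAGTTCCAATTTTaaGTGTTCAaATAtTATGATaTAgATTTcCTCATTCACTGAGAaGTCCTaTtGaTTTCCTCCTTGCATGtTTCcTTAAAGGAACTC
Olfr402: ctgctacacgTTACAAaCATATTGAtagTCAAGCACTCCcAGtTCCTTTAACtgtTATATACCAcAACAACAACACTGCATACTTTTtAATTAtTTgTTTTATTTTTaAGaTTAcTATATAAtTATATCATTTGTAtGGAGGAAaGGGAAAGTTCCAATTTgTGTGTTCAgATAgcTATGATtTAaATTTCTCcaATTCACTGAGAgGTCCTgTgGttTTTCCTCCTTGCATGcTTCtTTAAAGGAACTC
Neither receptor of the second pair passed the test, and their log2 differences were -0.24 for Olfr401 and -1.33 for Olfr402. Another pair, Olfr380 and Olfr381, was identical at 205 of 244 aligned bases (84.0%) and had log2 differences of -0.34 and 0.31. Windows were at hand for 31 of the 36 receptors, and these 3 pairs had the highest alignment scores of 465 pairs. In 24 of the 31 windows the listed gene start is an ATG, so those windows end at the coding start rather than at a mapped transcript start. The starts of Olfr389 and Olfr392 are not of that kind. The coding sequences were not compared here, and signal shared through probes that match more than 1 receptor was not tested.

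Upstream windows were also searched for the homeodomain core TAATNA on both strands and for the Ebf core CCCNNGGG, which reads the same on both. TAATNA stood in 19 of the 31 windows (61.3%), against 64.0% of 944 windows of all odorant receptors and 24.3% of the 32851 windows of the table. In the windows whose start is not an ATG it stood in 2 of 7 (28.6%), against 66.8% of 259 such receptor windows. CCCNNGGG stood in 1 of the 31 (3.23%), against 2.75% of receptor windows and 11.8% of all windows. Among the receptors that fell, TAATNA stood in the windows of Olfr392 and Olfr1396 and in none of those of Olfr389, Olfr1384 and Olfr1387. The listed start is an ATG in 685 of the 944 receptor windows but in 1915 of the 32851 windows of the table, so these windows are unlike. Their base composition was not compared. These are letter matches within the windows and describe no bound site.

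Values are log2 RMA signals, 1 per transcript cluster and array, and differences are arrays labelled knockout minus wildtype. Array medians lay between 7.64 and 7.73. Emx2 itself was at 8.37, 8.59 and 8.36 in the wildtype arrays and at 8.38, 8.33 and 8.39 in the arrays labelled knockout. Its difference of -0.07 was smaller than the spread of the wildtype arrays (limma adjusted p = 0.894). No source used here says whether its probes lie in the deleted stretch, so it does not check the labels, and every direction below rests on them. Y-linked signal, as the mean of 2 genes, ran from 6.96 to 8.08 in knockout replicates 2 and 3 and wildtype replicate 2, and from 3.62 to 3.83 in the remaining arrays.

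Of the 36 chromosome 11 receptors, 5 fell in the arrays labelled knockout and 0 rose (limma, adjusted p at or under 0.05 over all 16661 clusters), while 20 had an unadjusted p under 0.05 (55.6%, against 10.1% of all clusters and 61.8% of the other odorant receptors). The receptors that fell were Olfr392, Olfr389, Olfr1384, Olfr1387 and Olfr1396, and their falls ran from 1.77-fold to 5.59-fold. Over all clusters tested, 1.9% were called lower and 0.144% higher, so the 13.9% called lower here lies above that background. Among the other 675 odorant receptors 27% were called lower and 1.04% higher. Differences were negative for 27 of the 36 and positive for 9, with a median of -0.30 and quartiles of -0.69 and 0.00. The same median was -0.68 for the other odorant receptors, -0.04 for all clusters tested and -0.03 for the clusters that are not odorant receptors. Negative differences were found for 590 of the other 675 odorant receptors and for 10270 of all 16661 clusters. Those shares are the background for the counts of negative receptors and markers below. The list was chosen with these results known, so its count and median carry no test.

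The number that fell depended on which arrays were used. It was 3 when wildtype replicate 1 or 2 or knockout replicate 2 was left out, and 2 when wildtype replicate 3 or knockout replicate 1 or 3 was. It was 3 with Y-linked signal as a covariate, 2 after quantile normalization was repeated and 1, Olfr392, when all probe sets of the table were tested.

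All 3 arrays labelled knockout lay below all 3 wildtype arrays for 14 receptors (38.9%), against 12% of all clusters, and above them for 4 receptors (11.1%), against 3.51%. For the other odorant receptors these shares were 55.6% and 2.81%. The mean over the 36 receptors was 5.60, 5.50 and 5.57 in wildtype replicates 1 to 3 and 5.13, 5.36 and 5.04 in the knockout replicates. Knockout replicate 2 was the nearest to the wildtype arrays, and the groups did not overlap. Between the 2 arrays of low Y-linked signal in wildtype and the 1 in knockout the median difference of the receptors was -0.50. Between the 1 wildtype and the 2 knockout arrays of high signal it was -0.21.

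**Figure D1:**
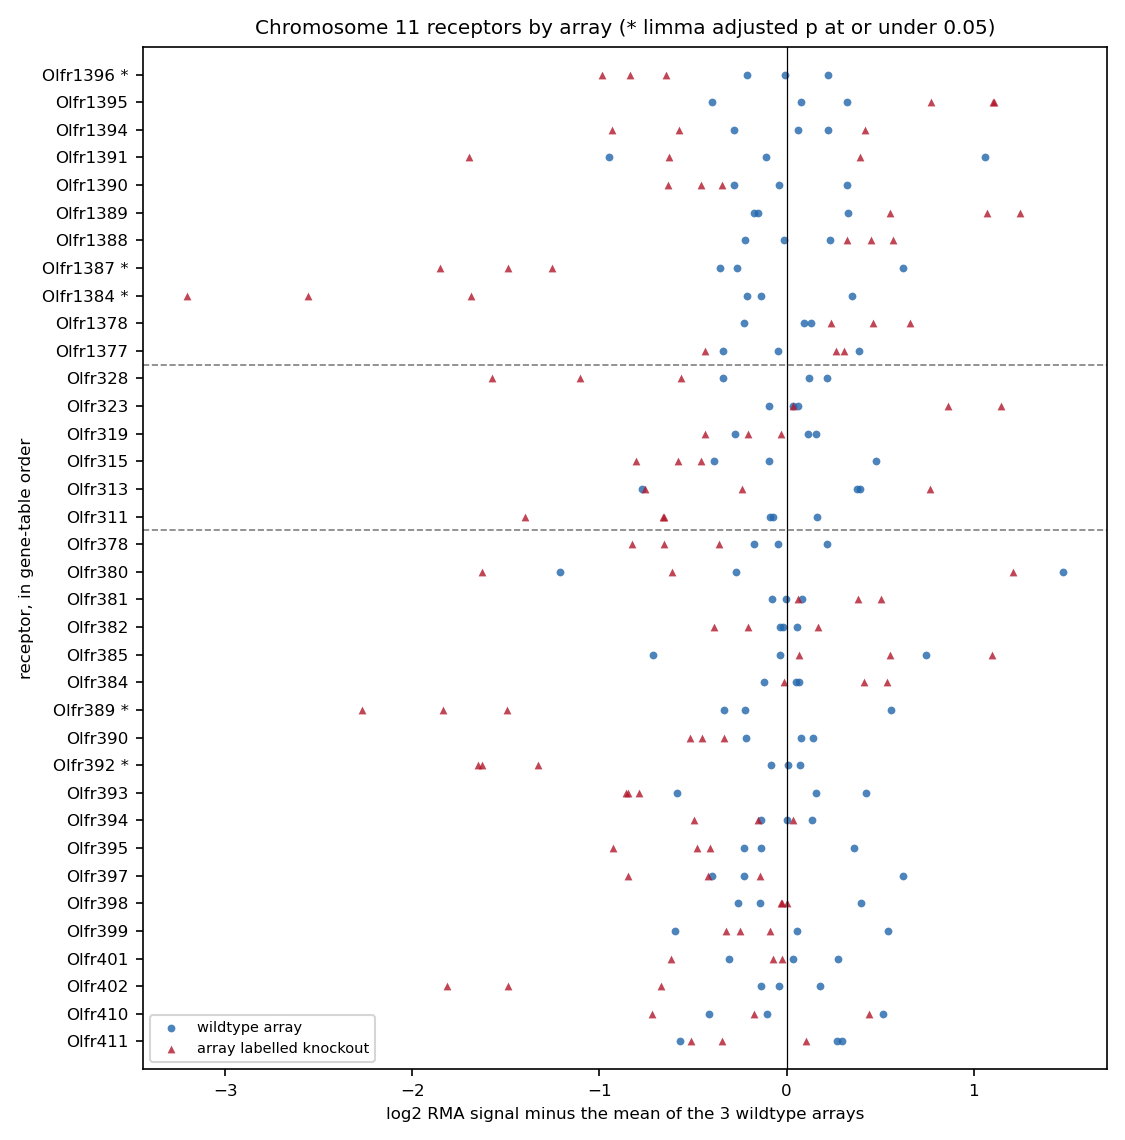
Signal of each of the 36 receptors on each array, as the log2 RMA signal minus the mean of the 3 wildtype arrays, with receptors in gene-table order. Circles are wildtype arrays, triangles are arrays labelled knockout, dashed lines part the 3 number ranges and stars mark the 5 receptors that fell. Olfr1384 shows the widest gap, and the triangles of Olfr1395, Olfr1389, Olfr1388 and Olfr1378 all lie to the right of the circles.

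Receptors share a tissue sample with every other cell of the dissected nose, and in bulk RNA fewer cells of a type and less RNA per cell cannot be told apart. Mature olfactory neuron markers, read for the cells that carry the receptors, were negative for 16 of 18 genes with a median of -0.54. Their mean ran from 9.32 to 9.66 in the wildtype arrays and from 8.82 to 9.04 in the arrays labelled knockout. Markers of mesenchyme, cartilage and bone were positive for 14 of 14 genes with a median of 0.30, and their mean ran from 9.35 to 9.50 in wildtype and from 9.77 to 9.95 in the arrays labelled knockout. No marker of either list was near 0 on any array, the lowest single values being 6.27 and 6.71. The part of these shifts in the receptor values was not tested.

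In the range from Olfr376 to Olfr412, 2 of 19 receptors fell and the median difference was -0.25, with 16 negative and 3 positive. The median was -0.39 with wildtype replicate 2 left out and -0.43 with knockout replicate 2 left out, and the number that fell ran from 1, with knockout replicate 1 or 3 left out, to 3. Olfr392 (MOR135-9) was at 7.23, 7.38 and 7.32 in the wildtype arrays and at 5.98, 5.66 and 5.68 in the arrays labelled knockout. The groups lay far apart, and each was tight. The difference was -1.54 with an SE of 0.11, a 2.90-fold fall (limma adjusted p = 0.00232). Olfr392 also passed with any single array left out, with adjusted p from 0.00828 to 0.0142, and within both levels of Y-linked signal its difference was -1.29 and -1.71. No other receptor of the 36 passed with each of the 6 arrays left out in turn.

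Olfr389 (MOR135-6), whose upstream window resembles that of Olfr392, was at 5.45, 4.55 and 4.66 in wildtype and at 3.05, 3.39 and 2.62 in the arrays labelled knockout. Wildtype replicate 1 was the highest, and the lowest wildtype array still lay above every array labelled knockout. The difference was -1.87 with an SE of 0.28, a 3.65-fold fall (limma adjusted p = 0.0252). The adjusted p rose to 0.0635 when wildtype replicate 3 was left out, and to 0.102 and 0.0863 when knockout replicates 1 and 3 were. The signal of Olfr389 in the arrays labelled knockout is among the low values of the table. The deposited table gives no background per cluster, so its part in the size of the fall was not tested.

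Next by p in this range came Olfr402 (MOR255-4), which did not pass. It was at 4.68, 4.999 and 4.78 in wildtype and at 3.33, 4.15 and 3.01 in the arrays labelled knockout, so the groups did not overlap. Its difference was -1.33 (95% interval -1.98 to -0.67; limma adjusted p = 0.0806), and it passed without knockout replicate 2, the highest of its group (adjusted p = 0.0137). Olfr401, with the like upstream sequence, was at 6.44, 6.10 and 6.69 in wildtype and at 6.39, 6.34 and 5.79 in the arrays labelled knockout, which overlap. The remaining MOR255 receptors of the range, Olfr399, Olfr410 and Olfr411, lay between -0.25 and -0.15, and none passed.

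The MOR135 receptors did not share 1 value. The zinc finger gene Zfp735 lies within their array in the gene table. The 6 measured before it in table order, from Olfr378 to Olfr384, had differences from -0.61 to 0.57 with 3 negative and 3 positive, and none passed. Of the 7 after it, from Olfr389 to Olfr397, all were negative, from -1.87 to -0.20 with a median of -0.61, and 2 fell. This division was made after the values were seen and was not tested. Olfr398 (MOR157-1), the next receptor, was among the 3 nearest to 0, at -0.02 (95% interval -0.42 to 0.39). The 2 MOR135 receptors of the array whose numbers lie outside the ranges were Olfr1 at -1.46 (limma adjusted p = 0.0647), with groups that did not overlap, and Olfr20 at 0.00 (adjusted p = 0.998). Both lie on the side before Zfp735 and are not in the counts of that side, so a strongly negative value stood there as well.

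**Figure D2:**
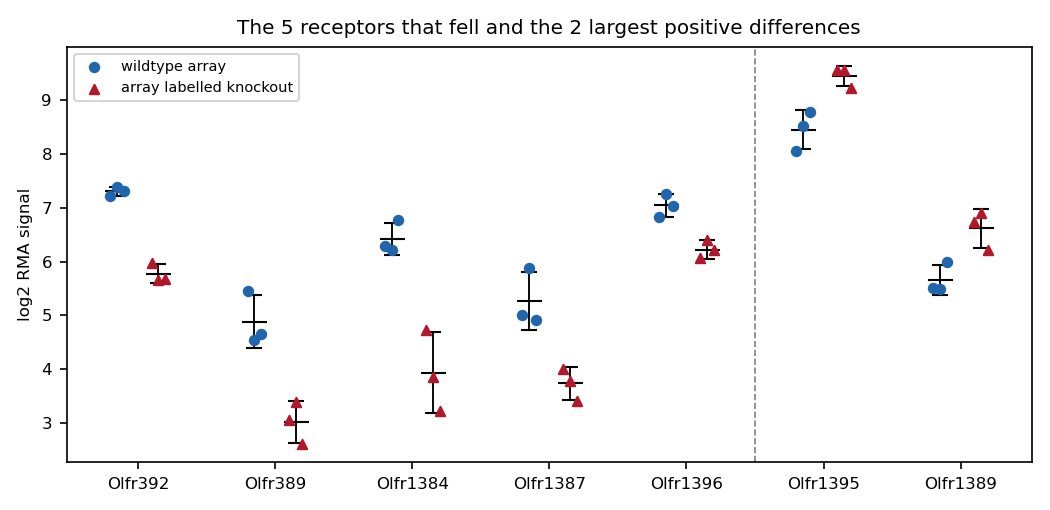
Log2 RMA signal on each array of the 5 receptors that fell and, right of the dashed line, of the 2 with the largest positive differences, which did not pass the test. Circles are wildtype arrays, triangles are arrays labelled knockout, and bars give the mean and SD of 3 arrays. In each of the 7 receptors the groups do not overlap.

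In the range from Olfr1377 to Olfr1397, 3 of 11 receptors fell, and the values ran in both directions, with 6 negative and 5 positive and a median of -0.36. That median was -0.12 with wildtype replicate 3 left out, -0.078 with knockout replicate 1 left out and 0.45 among the 5 receptors above the 25th percentile of the mean, and the number that fell was 0 or 1 with any single array left out. Olfr1384 (MOR256-23) was at 6.29, 6.21 and 6.77 in the wildtype arrays and at 4.73, 3.86 and 3.22 in the arrays labelled knockout. The arrays labelled knockout were spread over a wider span than the wildtype arrays, all of it below them. The difference of -2.48 (SE 0.37) is a 5.59-fold fall, the largest of the 36 (limma adjusted p = 0.0228). It did not pass when wildtype replicate 1, 2 or 3 was left out (adjusted p = 0.0676, 0.0585 and 0.0828) or when knockout replicate 2 was (0.0805). Within low and high Y-linked signal it was -1.79 and -2.67.

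Olfr1387 (MOR256-22), close to Olfr1384 in the array, was at 5.005, 5.89 and 4.91 in wildtype and at 4.01, 3.78 and 3.42 in the arrays labelled knockout. Its groups did not overlap, and wildtype replicate 2 was the highest. The difference of -1.53 (SE 0.28) is a 2.89-fold fall, just inside the threshold (limma adjusted p = 0.0496). With 1 array left out it passed only without wildtype replicate 2 (adjusted p = 0.0424). It was 0.0905 and 0.0736 with wildtype replicates 1 and 3 left out in turn, and 0.110, 0.140 and 0.180 with knockout replicates 1, 2 and 3 left out in turn. The difference was -0.95 within low and -2.29 within high Y-linked signal.

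Olfr1396 (MOR276-2), the first of the 36 in gene-table order, was at 6.84, 7.27 and 7.04 in wildtype and at 6.06, 6.40 and 6.21 in the arrays labelled knockout. The groups were separate, and the difference was -0.82 with an SE of 0.14, a 1.77-fold fall (limma adjusted p = 0.0389). It passed when wildtype replicate 1 was left out (adjusted p = 0.0448). It did not pass when wildtype replicate 2 or 3 was left out (0.0969 and 0.116) or when knockout replicate 1, 2 or 3 was left out (0.150, 0.0639 and 0.151).

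The largest positive difference of the 36 stood beside that fall. Olfr1395 (MOR277-1), the next measured receptor after Olfr1396 in the gene table, was at 8.06, 8.53 and 8.78 in the wildtype arrays and at 9.56, 9.56 and 9.23 in the arrays labelled knockout. Every array labelled knockout was above every wildtype array. The difference was 1.00 (95% interval 0.53 to 1.46), with limma adjusted p = 0.0636, and it did not pass with any array left out (adjusted p from 0.0557 to 0.227). Olfr1394 (MOR280-1), on the other side, was at -0.36 with overlapping groups. Among the first 3 receptors of this array the sign thus changed at both steps.

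The MOR256 receptors of the same range were split as well. Olfr1389 (MOR256-1) was at 5.51, 5.48 and 5.99 in wildtype and at 6.73, 6.91 and 6.22 in the arrays labelled knockout, without overlap. Its difference was 0.96 (95% interval 0.45 to 1.47; limma adjusted p = 0.0991), and it did not pass with any array left out. Olfr1395 and Olfr1389 both passed with array weights, at adjusted p = 0.0293 and adjusted p = 0.0438. Olfr1388 (MOR256-28) was at 0.45 with separate groups (adjusted p = 0.261), Olfr1390 at -0.48 with separate groups (adjusted p = 0.356) and Olfr1391 at -0.64 with overlapping groups (adjusted p = 0.852). With Olfr1387 and Olfr1384, 4 of the 6 MOR256 receptors were negative and 2 of them fell. Of the 20 MOR256 receptors measured on other chromosomes, 17 were negative, with a median of -0.78, 9 fell and 1 rose. The one that rose was Olfr15, at 1.64 (limma adjusted p = 0.0145), which is named here after its value was seen. Olfr10 at -0.28 and Olfr223 at 0.07 are MOR256 receptors of chromosome 11 outside the ranges. With them the median of the 22 outside the ranges was -0.44, against -0.56 for the 6 of this range. Of all odorant receptors outside the ranges, 27% were called lower.

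Both MOR129 receptors, the last of the range in gene-table order, were positive and did not pass. Olfr1378 was at 0.45 with separate groups (limma adjusted p = 0.304), and Olfr1377 at 0.05 (95% interval -0.56 to 0.65) was another of the 3 nearest to 0.

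**Figure D3:**
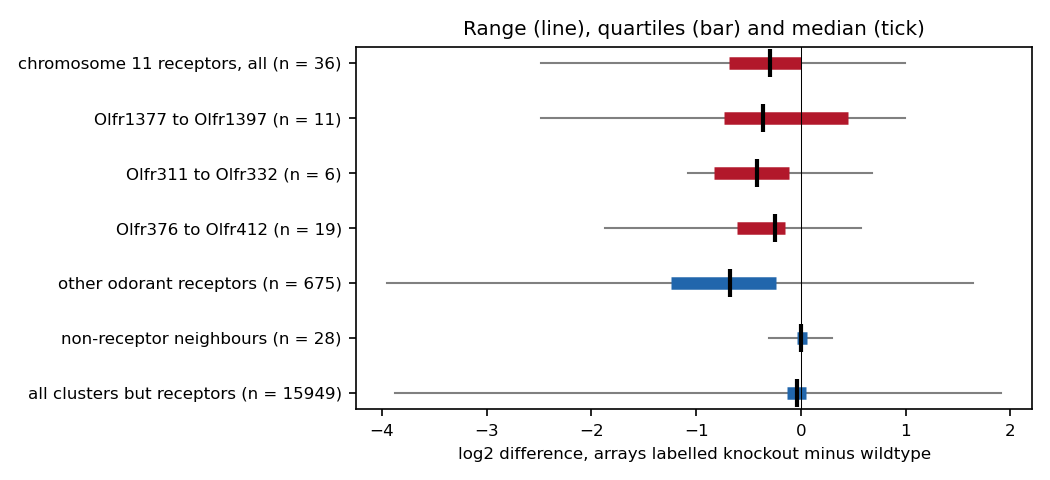
Log2 differences, arrays labelled knockout minus wildtype, of the 36 receptors, of each number range, of the other 675 odorant receptors, of 28 genes next to the receptors and of all clusters that are not odorant receptors. Lines give the range, bars the quartiles and ticks the median. The median of the chromosome 11 receptors is -0.30, that of the other receptors -0.68, and the neighbouring genes lie between -0.30 and 0.30.

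In the range from Olfr311 to Olfr332 none of the 6 receptors passed (limma), 5 were negative and 1 positive, and the median was -0.42. The median was -0.27 with wildtype replicate 1 left out, -0.64 with wildtype replicate 3 left out and -0.23 after repeated quantile normalization, and the 1 receptor above the 25th percentile of the mean, Olfr323, was positive. The range has 4 of its 6 receptors with an unadjusted p under 0.05, the positive Olfr323 among them. The shares were 10.1% of all clusters and 61.8% of the other odorant receptors. Olfr311 (MOR222-1) was at 5.08, 5.33 and 5.10 in wildtype and at 4.51, 3.77 and 4.51 in the arrays labelled knockout, without overlap. Its difference was -0.90 (95% interval -1.40 to -0.40; limma adjusted p = 0.117). Olfr328 (MOR275-2) was at 6.49, 6.04 and 6.59 in wildtype and at 5.27, 5.81 and 4.80 in the arrays labelled knockout, again apart, with a difference of -1.08 (adjusted p = 0.144). Olfr315 (MOR278-1) was at -0.61 (adjusted p = 0.387), also with separate groups.

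Olfr323 (MOR107-1) came after Olfr1395 and Olfr1389 among the positive differences of the 36, at 0.68 (limma adjusted p = 0.442). It was at 6.00, 5.97 and 5.84 in wildtype, at 5.97 in knockout replicate 1 and at 6.80 and 7.08 in knockout replicates 2 and 3. Knockout replicate 1 lay among the wildtype arrays, and without it the receptor passed at 1.01 (adjusted p = 0.0354). The 2 high arrays are also those of high Y-linked signal, as is wildtype replicate 2. Olfr313 (MOR222-2) was the last of the 3 nearest to 0, at -0.08, with a wide 95% interval of -1.16 to 1.00.

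Genes next to the receptors were compared by the same fit. In the order of the gene table the 36 receptors fall into 6 runs without another measured gene between them, and the 3 nearest measured genes on each side gave 28 genes. None of the 28 passed (limma), and 2 had an unadjusted p under 0.05, against 10.1% of all clusters. Their median was 0.00, with 14 negative and 14 positive. The smallest p-values belonged to 4933414I15Rik at -0.30 (adjusted p = 0.468) and 2210407C18Rik at 0.30 (adjusted p = 0.487). Among the 28 were Trpv1 at -0.10 and Trpv3 at -0.02, channel genes among the 3 nearest measured before the array of Olfr376 to Olfr412. Btnl9 at 0.05 and Mgat1 at 0.02 lie between receptors of the range from Olfr1377 to Olfr1397. Trpv1, Trpv3, Btnl9 and Mgat1 were picked from the 28 for their position.

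Another 12 receptors of chromosome 11 carry numbers outside the ranges, and 9 of them were negative, with a median of -0.22. Olfr43 (MOR125-1), which lies in the array of Olfr376 to Olfr412, fell from 6.29, 5.59 and 6.16 to 2.46, 3.49 and 4.09. The difference of -2.67 (SE 0.40) is a 6.37-fold fall (limma adjusted p = 0.0249). The gene table lists Olfr43 among the older names of its neighbour Olfr403, so which of the 2 genes the cluster measures is uncertain. It did not pass without wildtype replicate 1 (adjusted p = 0.0843), wildtype replicate 3 (0.0931) or knockout replicate 2 (0.0756). Olfr464 (MOR240-2), in a separate small array, rose from 5.95, 5.93 and 6.13 to 7.03, 7.38 and 7.36, a difference of 1.25 with an SE of 0.12 (adjusted p = 0.00595), and passed with any array left out. A further 8 clusters each name several genes with at least 1 receptor of the ranges. Of these 7 were negative and 2 fell, and they are counted but not named. Their median was -1.08, with values from -3.88 to 0.26, against a median of -0.30 for the 36 receptors.

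Genes that serve the receptors were read from lists. Of 19 measured genes of receptor trafficking and transduction, 15 were negative, with a median of -0.42, and 2 fell. Rtp2, a chaperone that brings receptors to the plasma membrane, fell by 1.09 and Ano2, the chloride channel of transduction, by 1.21 (limma adjusted p = 0.0249 and adjusted p = 0.0145). Of 20 genes of receptor choice and transcription, which include Lhx2, Ldb1 and the Ebf factors, 1 fell. This was Trim66, a chromatin reader of the TIF1 family, by 0.67 (adjusted p = 0.0226), and the list's median was -0.03. Mature neuron markers held 4 that fell of 18, led by S100a5, a calcium-binding protein, at -2.29 (adjusted p = 0.00983), with Umodl1 at -1.07 (adjusted p = 0.0169). Rtp2 and Ano2 stand in both the neuron and the trafficking list.

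Other cell types of the dissected tissue were read the same way. Immature neuron markers were negative for 10 of 10 genes with a median of -0.30, and Trib3 fell by 0.83 and Gap43, a growth cone protein, by 0.52 (limma adjusted p = 0.0456 and adjusted p = 0.0406). Of 9 progenitor markers 6 were negative and 3 positive, with a list median of -0.21, and the bHLH transcription factor gene Nhlh1 fell by 0.55 (adjusted p = 0.0216). The 3 positive ones, Kit, Mki67 and Top2a, did not pass and are named for their direction. The mesenchyme, cartilage and bone list held 1 gene that rose, the collagenase Mmp13 at 1.31 (adjusted p = 0.00807). Sustentacular cell markers were positive for 8 of 8 genes with a median of 0.19, and none passed (limma, 2 with an unadjusted p under 0.05), the smallest p-values being those of Muc2 at 0.50 (adjusted p = 0.237) and Cyp1a2 at 0.74 (adjusted p = 0.363). The 5 skeletal muscle markers had a median of 0.46, with Ckm at 0.53 (adjusted p = 0.630) and Tnnt3 at 0.57 (adjusted p = 0.668). Horizontal basal cell markers had a median of -0.05 in 5 genes, with Krt15 at -0.23 (adjusted p = 0.700) and Trp63 at 0.11 (adjusted p = 0.884). Motile ciliated cell markers had a median of 0.00 in 6 genes, with Dnah5 at 0.30 (adjusted p = 0.496) and Rsph1 at -0.23 (adjusted p = 0.810). None of the muscle, basal or ciliated markers passed, and 0 had an unadjusted p under 0.05. Of 9 brain and bulb neuron markers 8 were negative, with a median of -0.22, while Gad2, a GABA-synthesising enzyme, rose by 0.98 (adjusted p = 0.0203). Gad2 was the only one of the 9 with an unadjusted p under 0.05. The list mean was 6.32, 7.01 and 6.55 in wildtype replicates 1 to 3, with replicate 2 the highest. It ran from 6.36 to 6.53 in the arrays labelled knockout, so the groups overlapped.

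**Figure D4:**
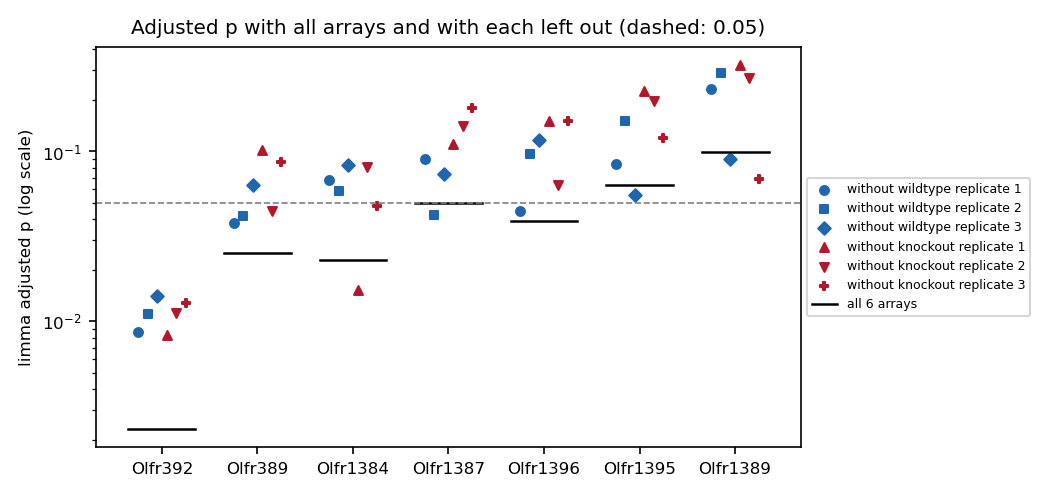
Limma adjusted p on a log scale for the 5 receptors that fell and the 2 largest positive differences, with all 6 arrays (black line) and with each array left out (symbols, blue for wildtype and red for knockout). The dashed line is 0.05. Olfr392 stays under it with each of the 6 arrays left out, between 0.00828 and 0.0142, and Olfr1395 and Olfr1389 stay above it with each left out.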

How the data were processed

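Each array held RNA pooled from 3 animals and was an exon array of Affymetrix, with 3 wildtype and 3 knockout arrays. The deposited values are log2 signals from RMA, run by the authors in Expression Console per the submitters' processing notes. RMA corrects background, equalises the arrays' distributions and gives 1 value per cluster, which hides changes limited to some exons. No source used here gives versions or the genome build.

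Of 23238 probe sets, 16661 lie in the numbering range that the platform annotation covers (14939 with 1 gene, 989 with several, 733 with none). The remaining 6577 entered one alternative. limma 3.58.1 in R 4.3.3 gave two-sided tests (lmFit, eBayes), adjusted by Benjamini-Hochberg over those 16661 clusters, with a call at 0.05. Neighbours, families and positions came from a GRCm38.p6 gene table, and of several clusters of a gene the brightest was used. Local alignments scored 2 for a match, -3 for a mismatch, -5 to open and -2 to extend a gap.

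Named are every receptor that passed, the 3 with the smallest p in a range where fewer passed, the 3 largest positive and the 3 smallest differences, Emx2, the outside receptors of chromosome 11 that passed, and up to 4 called or 2 other genes per list. Other receptors with values, as neighbours, family members or like sequences of these, were chosen after their values were seen. The members, lists and tests were chosen with earlier results of these data known. The fit was tested on simulated data. Pairs of arrays correlated at 0.975 to 0.991 and shared at most 9 identical values, so none is a copy of another. Each was treated as 1 replicate, which these values do not test. The labels do not say whether pools came from separate litters, so p-values measure the spread between these pools, with a precision limited by the number of arrays. Alternatives changed the scaling, the filter on dim clusters, the variance estimate and the array weights, added a replicate block or a Y-linked covariate, or left out each array. The split by Y-linked signal was chosen after seeing the data.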

Additional observations from a re-analysis of the deposited data

How the results depend on the processing

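The count of chromosome 11 receptors that fell, 5 with all arrays, was 5 with each array centred on the common median, with an intensity trend and with array weights, and 4 with robust estimation. It was 2 after repeated quantile normalization, 2 among the 13 receptors whose mean lay over the 25th percentile of all clusters, 3 with the Y-linked covariate and 1 with all probe sets tested. With 1 array left out it ran from 2 to 3. The count that rose, 0, was 2 with array weights and ran from 0 to 1 with 1 array left out, the 1 being Olfr323 without knockout replicate 1. The median difference, -0.30, ran from -0.45 to -0.21 with 1 array left out, was -0.19 after repeated quantile normalization, was -0.50 in the arrays of low and -0.21 in those of high Y-linked signal, and stayed negative under each alternative. The labels do not say whether same-numbered arrays form pairs, and the main fit did not pair them. Deviations of same-numbered arrays correlated at 0.0074, 0.049 and -0.167 over all clusters, which cannot decide whether the pools were paired. With the replicate block 2 receptors fell and 0 rose. Over all clusters the lower count, 316, was 215 after repeated quantile normalization, 109 with the dim filter, 186 with the Y-linked covariate, 143 with all probe sets, 168 with the replicate block and from 145 (without knockout replicate 1) to 224 (without wildtype replicate 2) with 1 array left out. Olfr392 kept its call under each of the 15 alternatives. Values near 0 changed sign. Olfr398 was at 0.019 with centred arrays, 0.078 after repeated quantile normalization, 0.018 with the Y-linked covariate and from -0.15 to 0.18 with 1 array left out. Olfr313 was at 0.10 after quantile normalization, 0.069 with the Y-linked covariate and from -0.50 to 0.26 with 1 array left out. Olfr1377 was at -0.060 with array weights and from -0.12 to 0.29 with 1 array left out, and Emx2 ran from -0.11 to 0.0027. The cause was not tested, except that fewer clusters or arrays entered the dim filter and the left-out fits. Signals of 23 receptors lie at or below the 25th percentile, and the part of background in their differences was not tested.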

Other observations

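Olfr380 (MOR135-1) had the largest SD within a genotype of the 36 receptors, 1.36 in wildtype and 1.44 in the arrays labelled knockout. It was at 2.68, 5.37 and 3.62 in wildtype replicates 1 to 3 and at 2.26, 5.10 and 3.28 in knockout replicates 1 to 3, so in both genotypes replicate 2 was the highest and replicate 1 the lowest. Its difference between genotypes was -0.34 (95% interval -2.42 to 1.74; limma adjusted p = 0.957). Olfr381, whose upstream window is the nearest to that of Olfr380, was between 4.30 and 4.88 on all 6 arrays and had the reverse order, with replicate 1 the highest and replicate 2 the lowest in both genotypes. This was picked after the values were seen, and the numbers are not known to mark a litter or batch.

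Receptors with like upstream windows had like differences in some pairs and unlike ones in others. Of the 7 pairs with the highest alignment scores, both members of Olfr389 and Olfr392 fell, both members of Olfr384 and Olfr385 were positive at 0.31 and 0.57 without passing, and Olfr401 and Olfr410 were at -0.24 and -0.15. Olfr402, 91.2% identical to Olfr410 over 204 aligned bases, was at -1.33, and Olfr313 and Olfr311 were at -0.08 and -0.90. The pairs share members and arrays, so they are given as values with no test.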
